A study of Penicillium oxalicum with 6 samples.

Results

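The 33 genes described here were almost silent in the control strain Δ*PoxKu70* of *Penicillium oxalicum* and were expressed in every library of the mutant Δ*PoxMKK1*. They were chosen from 9834 genes by their levels: a mean of below 1 FPKM over the 3 libraries of Δ*PoxKu70* and at least 10 FPKM in each of the 3 libraries of Δ*PoxMKK1*. FPKM is a level in sequenced fragments that is corrected for the length of the gene and for the depth of the library. The limits were met by 42 genes, of which 9 were left out by annotation because they belong to other gene classes. These were 5 genes with a carbohydrate-active enzyme family (POX00760, POX00970, POX08758, POX08827 and POX09621) and 4 with a sugar or major facilitator transporter entry (POX00960, POX02867, POX04916 and POX08656). Since the levels in both strains chose the 33 genes, the difference between the strains is given for them as a description, without a test.

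The gene deleted in the mutant, *PoxMKK1* (POX07948), encodes a mitogen-activated protein kinase kinase related to Ste7 of budding yeast. Such kinases stand in the middle of a cascade of protein kinases that passes signals from the cell surface to the nucleus, and in filamentous fungi the Ste7 branch is known for its part in growth, development and the use of nutrients. Filamentous fungi also carry many genes that are silent in vegetative hyphae and are transcribed only at certain stages or on certain substrates, among them genes for secondary metabolites, for surface proteins and for the formation of asexual spores (conidia).

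Δ*PoxKu70* is described as carrying a hygromycin resistance gene in place of the homologue of *Ku70* (POX01583), which serves non-homologous end joining, and Δ*PoxMKK1* as carrying in addition a G418 resistance gene in place of *PoxMKK1*. Mycelia of both strains had been grown with 1% glucose and were then held in medium with 2% Avicel, a microcrystalline cellulose, for 24 h. Each strain was represented by 3 libraries, named F, S and T, which the study describes as biological repeats. The mutant was a single deletion strain, and a strain with the gene put back was not analysed here.

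The labels were checked with the deleted genes. *PoxMKK1* (POX07948) was at 0.08, 0.04 and 0 FPKM in libraries F, S and T of Δ*PoxMKK1*, against 27.4, 25 and 32.3 in Δ*PoxKu70*. POX01583, described as replaced in both strains, was at 55.4, 62.8 and 61.2 FPKM in Δ*PoxMKK1* and at 63.5, 69.8 and 81.4 in Δ*PoxKu70*, so the values of this gene go against its described replacement in all 6 libraries. The cause was not tested. The total expected count per library lay between 13687087 and 14042791. In edgeR's quasi-likelihood test over 8749 genes, 1728 genes (19.8%) were called, which took an adjusted p below 0.05 and a change of at least 1 on the log2 scale in either direction, 947 of them higher in Δ*PoxMKK1* and 781 lower.

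The members held 41975, 44487 and 40642 reads in mutant libraries F, S and T, and 233, 162 and 301 reads in those of Δ*PoxKu70*. That is 0.303, 0.322 and 0.296% of the expected counts of the mutant libraries, against 0.00166, 0.00116 and 0.00220% of the control libraries. Thus genes that together took 696 reads in the control strain took 127104 in the mutant. The median member was at 36.7, 38.4 and 31.1 FPKM in the mutant libraries and at 0.50, 0.24 and 0.55 FPKM in the control libraries.

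**Figure D1:**
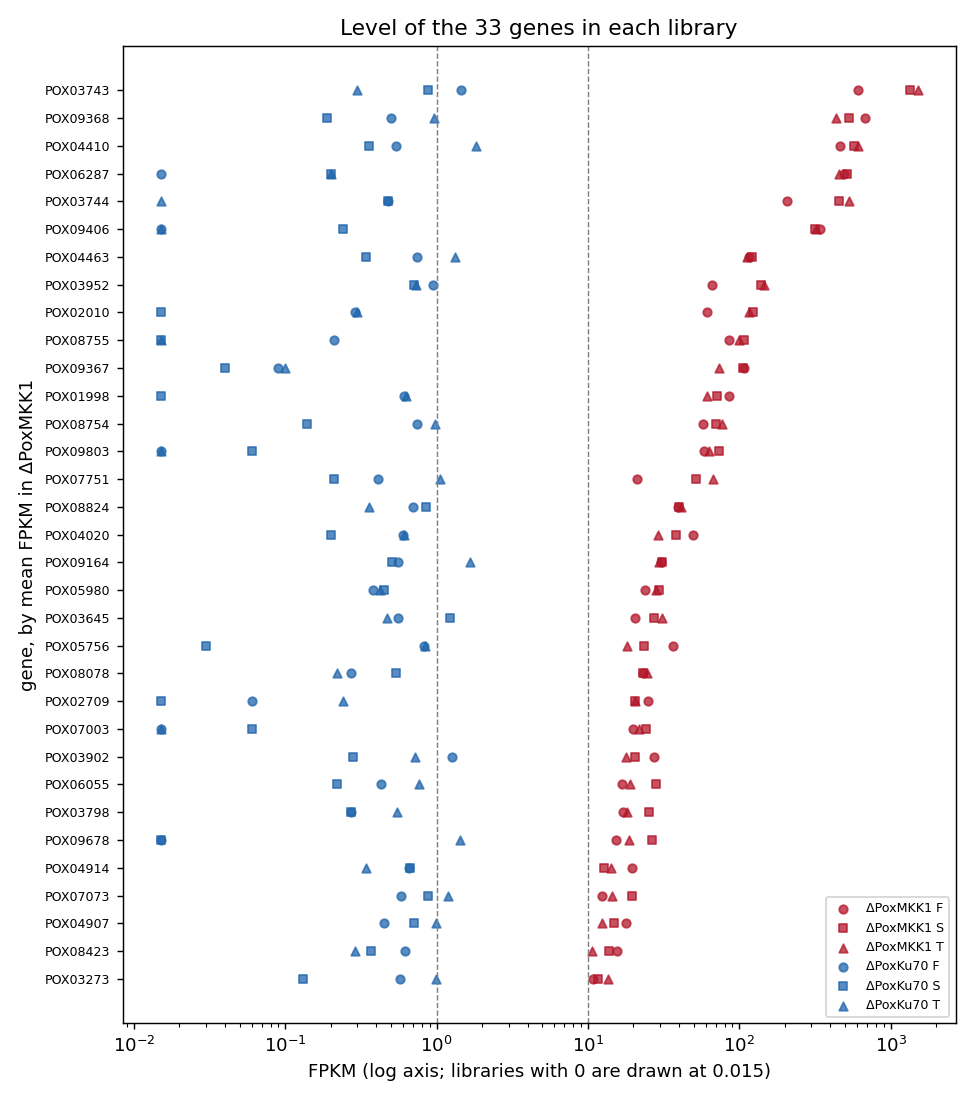
FPKM of each of the 33 genes on a log axis, in libraries F, S and T of ΔPoxMKK1 (red) and ΔPoxKu70 (blue), ordered by the mean in ΔPoxMKK1, with dashed lines at the limits of 1 and 10 FPKM. No library of ΔPoxMKK1 lies below 10.6 FPKM and no library of ΔPoxKu70 above 1.83 FPKM, and libraries at 0 are drawn at 0.015.

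Mean levels in Δ*PoxMKK1* ran from 12.03 to 1158 FPKM with a median of 39.0. They exceeded 100 FPKM for 9 members and stayed under 50 FPKM for 19. Means in Δ*PoxKu70* ran from 0.020 to 0.913 FPKM. In 9 members at least 1 control library reached 1 FPKM, in 10 members at least 1 control library had no read, and no member was without reads in all 3 control libraries.

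All 33 members passed the low-count filter, all 33 were called higher and in all 33 the groups did not overlap, beside 10.8% of all tested genes called higher and 35.3% with groups that did not overlap in that direction. These counts follow from the way the members were chosen, and nothing is read from them.

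How far each gene rose can be given only within the counting error of its few control reads. The ratio of the reads in Δ*PoxMKK1* to those in Δ*PoxKu70*, scaled by the library totals, ran from 17.6 (POX07073) to 4012 (POX09406), with a median of 84.0. For the 7 members with at most 3 control reads the intervals were wide: POX09406 had 3986 reads against 1, which gave a 95% Clopper-Pearson interval of the ratio from 720 to 158497. For POX04463, with 18654 reads against 128, the ratio of 147 was held between 123 and 176. The order of the upper part of the list is therefore not resolved by these data, and the intervals cover counting error only.

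**Figure D2:**
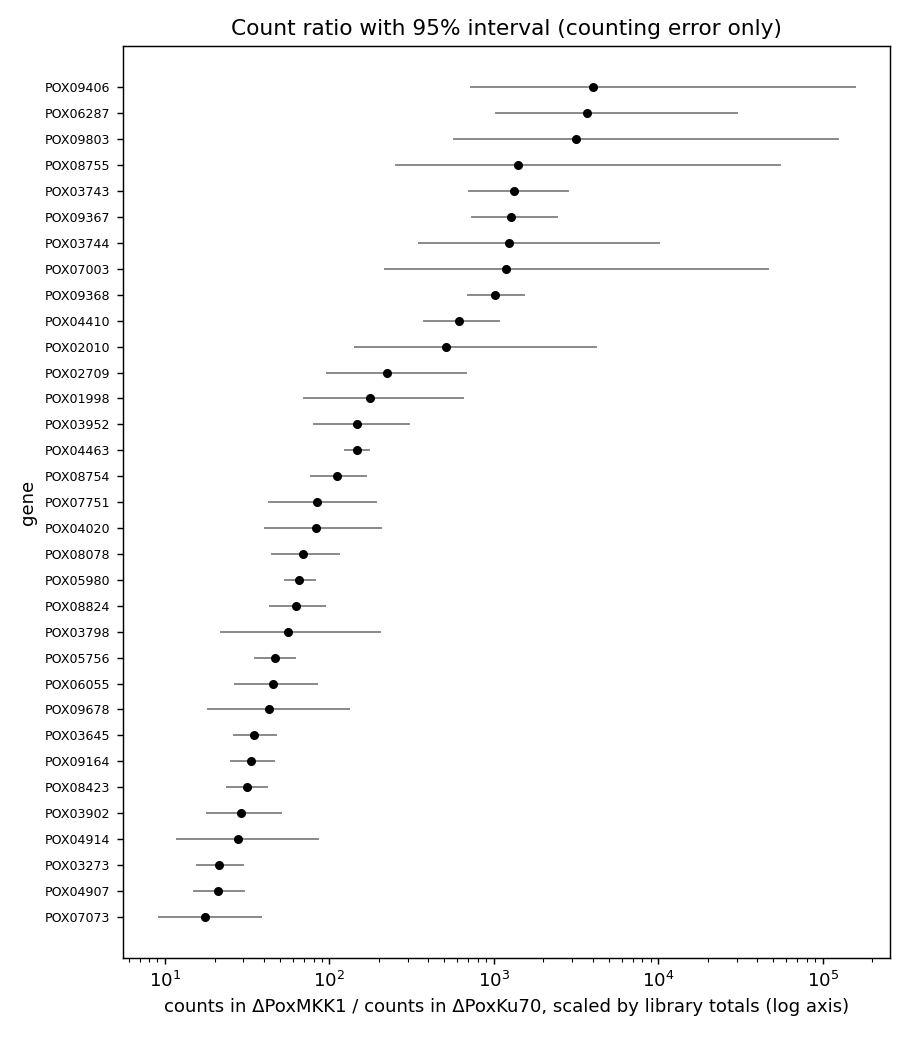
Ratio of the reads in ΔPoxMKK1 to those in ΔPoxKu70, summed over 3 libraries each and scaled by library totals, on a log axis, with 95% Clopper-Pearson intervals that cover counting error only. The ratios span 17.6 to 4012, and the genes with 1 control read (POX09406, POX09803, POX08755 and POX07003) have the widest intervals.

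The members differed widely in what is known of their products. Of the 33, 32 were in the study's list of 1114 changed genes, whose InterPro entries (protein families and domains) were used here for function, and POX03273 was not. An InterPro entry was given for 15 members, and 18 had none. Of these 18, 17 were in the list, and POX03273 could not be looked up there, also not for the classes left out. Among the 10 members with the highest mean level, 7 had no entry. Members without an entry held 73.5% of the summed mean FPKM of the 33 genes in Δ*PoxMKK1* but 36.2% of the reads. They were shorter: their median effective length, worked out from count and FPKM, was 346 bases, against 1305 bases for the members with an entry. In the study's list as a whole, 28.7% of genes had no entry, and the medians were 698 and 1311 bases.

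The members with an entry of the list made here for the assembly of secondary metabolites were a pair with consecutive identifiers. POX09367 has an amino acid adenylation domain of the type found in nonribosomal peptide synthetases, which activates an amino or carboxylic acid as an adenylate, and an NAD-binding domain of the thioester reductase type. Its levels were 108, 105 and 73.9 FPKM in Δ*PoxMKK1* and 0.090, 0.040 and 0.10 FPKM in Δ*PoxKu70*, from 15158 and 12 reads. Its neighbour POX09368, a pyridoxal phosphate-dependent decarboxylase by its entry, an enzyme class that removes the carboxyl group of amino acids, was at 680, 532 and 439 FPKM against 0.50, 0.19 and 0.96. POX09368 held more reads than any other member, 26103 in the mutant and 26 in the control strain. Both genes were lowest in library T of the mutant, and both were lowest in library S of the control strain. In that strain POX09368 was highest in library T, while POX09367 had 5 reads each in F and T.

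Entries of the list made here for cell surface proteins were found in POX03952 and POX01998. POX03952 has a LysM domain, which binds chitin and related N-acetylglucosamine polymers. It was at 66.0, 139 and 146 FPKM in Δ*PoxMKK1* and at 0.94, 0.71 and 0.73 FPKM in Δ*PoxKu70*. POX01998, which has the fold of concanavalin A-like lectins and glucanases, was at 85.8, 71.6 and 61.5 FPKM against 0.61, 0 and 0.63. Library F of the mutant was the lowest for the LysM gene and the highest for POX01998.

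Transport proteins other than sugar and major facilitator transporters accounted for 4 members. POX08824 belongs to the aquaporin family, whose members form membrane channels for water or small solutes such as glycerol, and it was among the steadiest of all members in the mutant at 39.5, 40.1 and 41.3 FPKM, against 0.70, 0.85 and 0.36 in the control strain. POX05980 is an ATP-binding cassette (ABC) transporter with the domains of fungal drug-efflux pumps, and with 81 control reads it was better counted in Δ*PoxKu70* than most members. It was at 24.0, 29.6 and 28.3 FPKM against 0.38, 0.45 and 0.42. The libraries of a strain lay close together for POX05980 in both strains, and for POX08824 in the mutant alone. POX03645, with an amino acid transporter domain, was at 20.3, 27.2 and 31.1 FPKM against 0.56, 1.23 and 0.47. POX08423, related to bacterial threonine and serine exporters, was at 15.6, 13.9 and 10.6 FPKM against 0.62, 0.37 and 0.29, which placed it nearest above the limit of 10 FPKM.

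Enzymes acting on aromatic amino acids and conjugates were represented by POX05756 and POX06055. POX05756 is a phenylalanine ammonia-lyase by its entries, an enzyme class that splits ammonia from phenylalanine to give cinnamic acid. It was at 36.7, 23.4 and 18.0 FPKM in Δ*PoxMKK1* and at 0.82, 0.030 and 0.84 FPKM in Δ*PoxKu70*, and in proportion the control libraries differed more among themselves than the mutant libraries did. POX06055, a glutathione S-transferase, an enzyme class that joins glutathione to reactive compounds, was at 16.8, 28.0 and 19.1 FPKM against 0.43, 0.22 and 0.77. A further pair of members had enzyme-like entries outside these groups. POX08078, of the acyltransferase 3 family, was at 23.3, 23.1 and 24.7 FPKM against 0.27, 0.54 and 0.22. POX04907, with a barrel fold like that of xylose isomerase, was at 17.8, 14.9 and 12.4 FPKM against 0.45, 0.71 and 0.99.

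Signalling domains were found in POX04463 and POX07003. POX04463 encodes a protein kinase with an implied effective length of 3840 bases, and it held both 18654 reads in the mutant and 128 of the 696 control reads of all members. It was at 117, 122 and 113 FPKM in Δ*PoxMKK1* and at 0.74, 0.34 and 1.33 FPKM in Δ*PoxKu70*. Its mutant libraries differed little, while its control libraries differed several times over. POX07003 has a RING finger, a zinc-binding domain common in ubiquitin ligases, and was at 19.8, 24.2 and 21.8 FPKM against 0, 0.060 and 0, the control value being a single read.

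The most abundant member was POX03743, a gene without an entry, at 614, 1351 and 1510 FPKM in Δ*PoxMKK1* and 1.45, 0.88 and 0.30 FPKM in Δ*PoxKu70*. By mean FPKM it ranked 136th of 9834 genes in the mutant and 8741st in the control strain. The gene with the next identifier, POX03744, was at 208, 459 and 533 FPKM against 0.48, 0.48 and 0. Both genes of this pair were lower in mutant library F than in S and T, by about the same proportion. Their implied effective lengths were 246 and 149 bases, and short lengths make FPKM less certain, since the correction for length is then large.

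Other members among the 10 most abundant also had no entry. POX04410 was at 466, 578 and 607 FPKM in Δ*PoxMKK1* and at 0.54, 0.36 and 1.83 FPKM in Δ*PoxKu70*. POX06287 was at 490, 513 and 454 FPKM against 0, 0.20 and 0.20, from 7335 and 2 reads. POX09406 was at 341, 315 and 319 FPKM against 0, 0.24 and 0. In POX06287 and POX09406 the mutant libraries stayed within a narrow range, with coefficients of variation of 6.07 and 4.27%. POX02010 was less steady, at 60.9, 124 and 116 FPKM against 0.29, 0 and 0.30. POX08755 was at 85.2, 107 and 99.9 FPKM against 0.21, 0 and 0. POX08754, whose identifier precedes that of POX08755 and whose entry is a domain of unknown function, was at 57.4, 69.9 and 76.6 FPKM against 0.74, 0.14 and 0.97. The other 11 members without an entry lay between 10.8 and 73.6 FPKM in the mutant libraries and between 0 and 1.67 FPKM in the control libraries, with read ratios from 17.6 to 3167. Of these, POX09803 had the highest ratio, with 3147 reads against 1, and POX07073 the lowest, with 157 reads against 9.

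Near the limit of 1 FPKM in the control strain, the members just inside were POX09164 (0.913 FPKM), POX04410 (0.910 FPKM) and POX07073 (0.883 FPKM), and the genes just outside were POX04147 (1.01 FPKM), POX00863 (1.08 FPKM) and POX00859 (1.09 FPKM). At the limit of 10 FPKM in the mutant, the lowest library was at 10.6 FPKM for POX08423, 10.8 FPKM for POX03273 and 12.3 FPKM for POX07073, and at 9.83, 9.48 and 9.31 FPKM for POX08354, POX05247 and POX03298 just outside. Both limits thus cut through a continuous range of values. Membership also turned on single control libraries: without library T of Δ*PoxKu70*, 40 genes met the rule, and POX03743 was no longer among them, whereas without library F or S of that strain 31 and 30 genes met it.

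The members varied more among the mutant libraries than other expressed genes. The rule bears on this spread in part, since it asked for at least 10 FPKM in each mutant library. With a mutant mean of at least 10 FPKM instead, 38 genes met it, the 33 members and 5 others. The coefficient of variation over the 3 libraries of Δ*PoxMKK1* had a median of 18.8% over the members, with a range from 1.87% (POX09164) to 50.2% (POX07751). Over all 6982 genes with a mean of at least 10 FPKM in the mutant the median was 8.33%. For 18 members it was below 20% and for 6 above 30%. These 6 were POX07751, POX03744, POX03743, POX03952, POX05756 and POX02010, and in each of them the highest mutant library was at least 2 times the lowest. The 6982 genes were not matched to the members for reads or length, and their median effective length was 1257 bases, against 665 for the members. Some members had few reads in the mutant, such as POX04914 with 58, 38 and 42, and few reads add counting error to the spread. No test was made of this difference in spread.

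Several of these genes were low in library F. In POX07751, at 21.3, 51.5 and 67.4 FPKM, and in POX03743, POX03744, POX03952 and POX02010, library F lay at or below 2/3 of the mean of S and T. This held for 5 of the 33 members (15.2%), beside 3.62% of the 6982 genes, which were not matched for reads or length. The opposite pattern, with F at least 1.5 times the mean of S and T, was seen in 1 member, POX05756, beside 1.05% of the genes. F was the lowest library in 18 members (54.5%), beside 36.9% of 7723 other genes with mutant counts in the range of the members. Without library F of Δ*PoxMKK1*, 37 genes met the rule and all 33 members were among them.

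**Figure D3:**
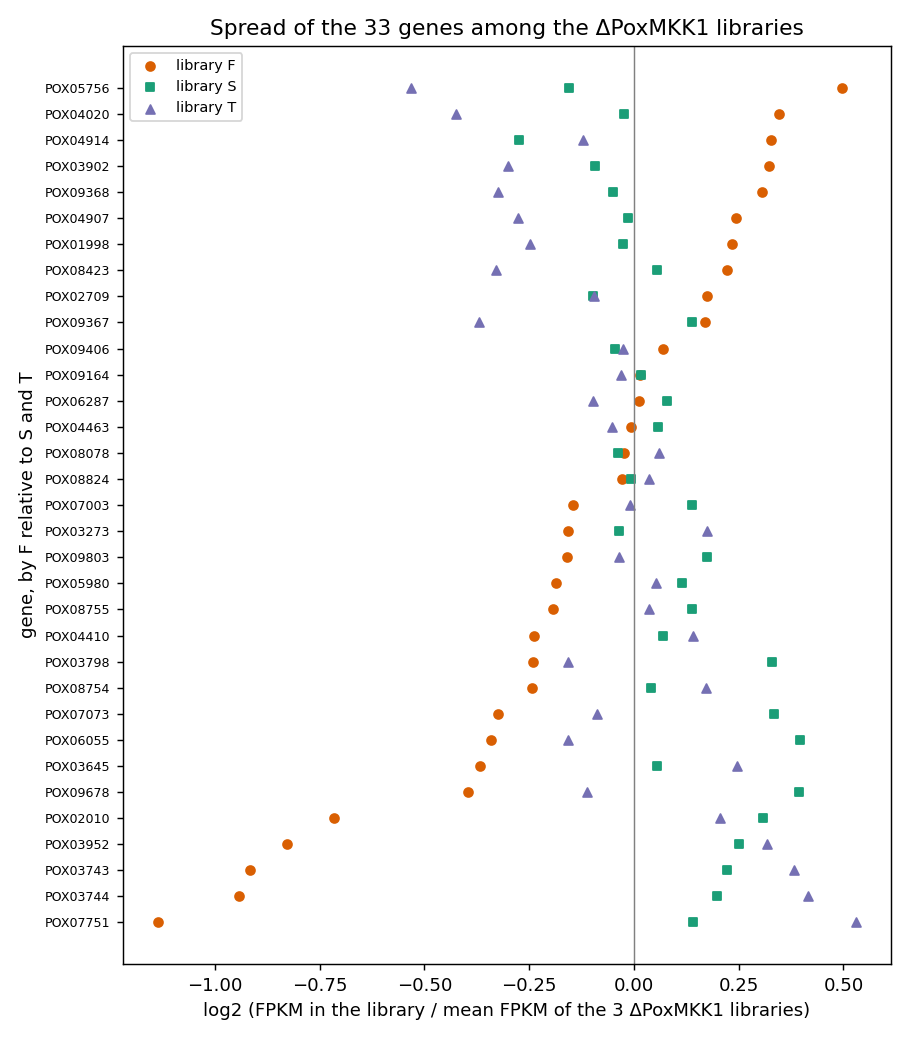
Log2 ratio of the FPKM in each ΔPoxMKK1 library (F, S and T) to the mean of the 3 libraries, for each of the 33 genes, ordered by library F relative to S and T. In the 5 lowest genes (POX07751, POX03744, POX03743, POX03952 and POX02010) library F stands well to the left of S and T, while most other genes lie closer to 0.

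The few reads of the members in the control strain were not spread evenly either. Library S held 162 of the 696 reads, library F 233 and library T 301, and without POX04463, the member with the most control reads, the numbers were 144, 193 and 231. S was the lowest control library in 16 members (48.5%), beside 32.6% of 1706 other genes with control counts in the same range, and T was the highest in 19 members (57.6%), beside 41.5%. By reads scaled by the library totals, the full order of T above F above S was found in 14 members (42.4%), beside 19.8% of those genes. It was seen in 6 of the 11 members with at least 20 control reads, namely POX04463, POX09164, POX05756, POX08754, POX09368 and POX03273. Of the 14, POX01998, POX02010, POX04020, POX05756 and POX09367 had the same number of reads in F and T. In POX05756 this was 24 reads each. T stood above F in these genes only because the total of library T was smaller. Other members went against the order. POX05980, POX03645, POX08078 and POX08824 were highest in library S.

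Most of the conidiation genes listed here were higher in Δ*PoxMKK1*, a direction that the rule had fixed for the members. *PoxBrlA* (POX06534), whose counterpart BrlA is the central activator of conidium formation in *Aspergillus nidulans*, was at 460, 394 and 379 FPKM in Δ*PoxMKK1* and at 29.4, 5.38 and 42.2 FPKM in Δ*PoxKu70*, which gave a log2 fold change of 3.95 ± 0.66 (SE, edgeR's adjusted p = 0.0030). In the control strain it thus had the same order of T above F above S. *PoxAbaA* (POX07025), whose counterpart acts after BrlA in that pathway, was at 105, 92.2 and 87.8 FPKM against 4.40, 3.88 and 3.32 and did not have that order. *PoxFlbD* (POX07099), whose counterpart acts upstream of BrlA there, was at 415, 510 and 448 FPKM against 165, 117 and 211 and had it. All 4 genes with a hydrophobin entry (small proteins that coat aerial hyphae and conidia) had the order T above F above S in the control strain. The share of 19.8% given above covers genes with few control reads. No share was worked out for genes matched to the conidiation genes, so nothing is read from their order. Within the mutant, *PoxBrlA*, *PoxAbaA* and the 4 hydrophobin genes were highest in library F, and *PoxFlbD* was lowest there. Among the 33 members, by contrast, mutant library F was the lowest in 18 and the highest in 11. The most abundant gene of the mutant, the hydrophobin gene POX01764, was at 66962, 63158 and 61596 FPKM in Δ*PoxMKK1* and at 9628, 3283 and 15004 FPKM in Δ*PoxKu70*.

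These 7 genes all came from the study's list of changed genes. In that list 52.7% of genes were called higher here, beside 10.8% of all tested genes. Of the 7 genes, 5 were called higher in Δ*PoxMKK1* and the hydrophobin genes POX01651 and POX06595 were not called, with log2 fold changes of 1.32 (edgeR's adjusted p = 0.11) and -1.17 (adjusted p = 0.13). Their summed level was 70445 to 78265 FPKM in the mutant libraries and 4506 to 22564 FPKM in the control libraries, and none of them was at 0 in any library. POX01764 alone made up most of that sum in every library, and POX06595 had a mean of 490 FPKM in Δ*PoxMKK1* against 1064 FPKM in Δ*PoxKu70*. Their part in the levels of the members was not tested. In these bulk libraries, more cells of a type and more RNA per cell cannot be told apart. The samples are labelled as mycelium, and no marker gene of vegetative hyphae was named in the sources. From the libraries, the label could therefore be checked only by these genes. By microscopy of liquid cultures, Avicel among them, the study reported phialides in Δ*PoxMKK1* and none in Δ*PoxKu70*. It also counted more spores of the mutant in liquid media, after several days of growth, and fewer on solid plates. None of these observations is described as made on the sequenced cultures.

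The members also lay in places along the numbering of the genes that can be examined without the rule. Identifiers run from POX00001 to POX09834 without a gap, and they stand in here for order, since no positions in the genome were used. There were 60 genes 1 number away from a member that did not meet the FPKM limits themselves. Of the 51 that passed the low-count filter, 11 (21.6%) were called higher in Δ*PoxMKK1*, beside 10.8% of all tested genes, and 5 (9.80%) lower, beside 8.93%. Their median log2 fold change was 0.18, against 0.01 over all tested genes, and 30 of the 51 were above 0. The difference between these shares was not tested.

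The neighbour with the largest change was POX09405, beside POX09406. It was at 466, 501 and 483 FPKM in Δ*PoxMKK1* and at 4.34, 2.34 and 5.64 FPKM in Δ*PoxKu70*, which gave a log2 fold change of 6.81 ± 0.22 (SE), and it missed the rule by its control level alone. Both genes of this pair were thus steady and abundant in the mutant, and neither had an InterPro entry. Beside the glutathione S-transferase gene POX06055, both neighbours were called higher. POX06054 was at 55.1, 60.3 and 57.9 FPKM against 10.2, 8.27 and 9.42, a log2 fold change of 2.57 ± 0.11, and POX06056 at 6.13, 5.32 and 4.07 FPKM against 0.060, 0.060 and 0. Beside the phenylalanine ammonia-lyase gene POX05756, POX05755 was at 4.10, 3.78 and 2.17 FPKM against 0.11, 0 and 0.12. POX06056 and POX05755 missed the rule because they stayed below 10 FPKM in the mutant.

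Other neighbours called higher were POX08077, a glycosyltransferase gene of family GT34 beside the acyltransferase gene POX08078 (log2 fold change 3.15 ± 0.17), POX09679 beside POX09678 (3.12 ± 0.29), POX04411 beside POX04410 (2.69 ± 0.43), POX03953 beside the LysM gene POX03952 (1.31 ± 0.33) and POX04915 beside POX04914 (1.11 ± 0.22). The call for POX03953 was lost without mutant library T, where its log2 fold change was 0.99, and that for POX04915 without control library F, where it was 0.98. Neighbours called lower included POX02009 and POX02011 on either side of POX02010, with log2 fold changes of -3.00 ± 0.26 and -2.48 ± 0.22, and POX02710, a glycoside hydrolase gene of family GH71 beside POX02709, with -2.99 ± 0.24. POX02010, at 0 to 0.30 FPKM in Δ*PoxKu70*, thus stood between genes at 214, 226 and 405 FPKM and at 67.6, 56.0 and 89.3 FPKM in the same libraries, and in Δ*PoxMKK1* it was above both. POX03797 beside POX03798 was also called lower, with -1.05 ± 0.11, a call lost with library sizes alone as the scaling (-0.99). The sources used here do not say if counting was stranded, so reads of overlapping genes cannot be told apart.

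Consecutive identifiers were held by 3 pairs of members, and their surroundings differed. Over all tested genes, 10.8% were called higher and 8.93% lower, and the few genes around each pair were not tested against these shares. Around POX03743 and POX03744, within 4 numbers on each side, 7 genes were tested, of which 1 was higher and 2 were lower. The higher one, POX03745, reached only 0.58, 0.87 and 1.02 FPKM in Δ*PoxMKK1*. The lower ones were the sugar transporter gene POX03742, at 13.0, 15.5 and 19.2 FPKM against 55.7, 78.3 and 61.2 (log2 fold change -2.10 ± 0.19, edgeR's adjusted p = 0.00020), and POX03741, with a log2 fold change of -1.34 ± 0.18. The pair thus lay directly beside genes that changed in the opposite direction or were scarcely expressed.

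Around POX09367 and POX09368, none of the 5 tested genes was higher and 2 were lower. POX09365, a major facilitator transporter gene, was at 40.9, 108 and 97.2 FPKM in Δ*PoxMKK1* and at 1260, 1238 and 913 FPKM in Δ*PoxKu70*, which gave a log2 fold change of -3.86 ± 0.40. POX09366, between this gene and the pair, had a log2 fold change of 0.13 ± 0.14 (edgeR's adjusted p = 0.47). POX09371 was called lower with -1.13 ± 0.32, a call that was lost when mutant library F or S or control library S or T was left out. POX09369, which directly follows the pair, did not pass the low-count filter, and it was at 10.5, 5.85 and 5.89 FPKM in Δ*PoxMKK1* (9, 5 and 5 reads) and at 1.15, 2.32 and 0 FPKM in Δ*PoxKu70* (1, 2 and 0 reads).

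Around POX08754 and POX08755, 3 of the 6 tested genes were higher and none was lower. POX08758 met the FPKM limits, which fixed its direction, and was left out for its entries of carbohydrate-active enzyme families AA3 and AA8. Its log2 fold change was 9.85 ± 0.25, and that of POX08757 was 1.91 ± 0.36. POX08753, a cytochrome P450 gene, was at 440, 388 and 358 FPKM in Δ*PoxMKK1* and at 107, 27.2 and 165 FPKM in Δ*PoxKu70*, with a log2 fold change of 1.93 ± 0.56, and its control libraries followed the order T above F above S, as did those of POX08754. The call for POX08753 was lost when any mutant library or control library F was left out.

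**Figure D4:**
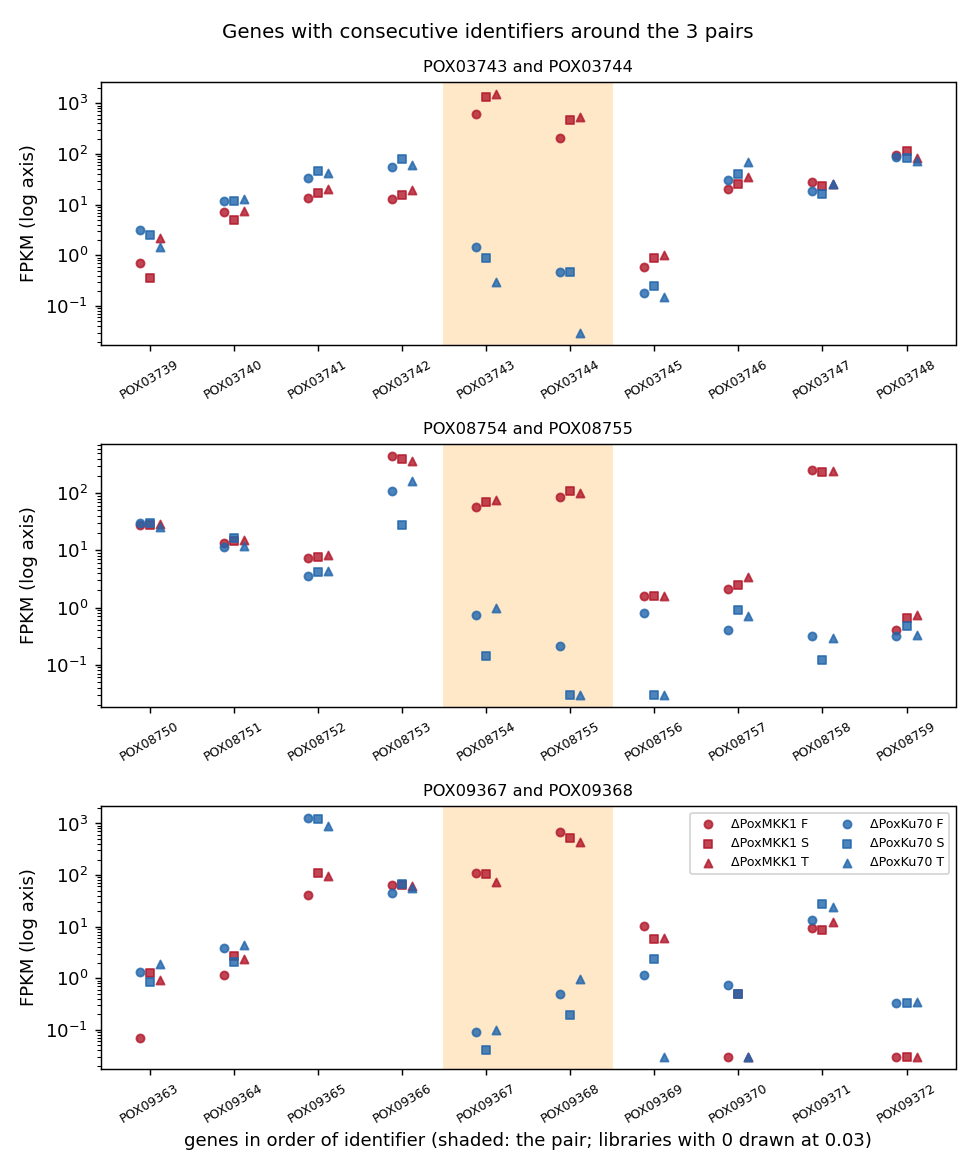
FPKM on a log axis of the genes within 4 identifier numbers of the pairs POX03743 and POX03744, POX08754 and POX08755, and POX09367 and POX09368, in libraries F (circles), S (squares) and T (triangles) of ΔPoxMKK1 (red) and ΔPoxKu70 (blue), with the pairs shaded and libraries at 0 drawn at 0.03. POX08758, at the right of the middle pair, rises like the pair, whereas POX09365, at the left of the lower pair, is lower in ΔPoxMKK1.

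Genes of the study's list in the functional groups of the members, which include entries that no member has, moved in both directions, and these counts are not independent of the study's choice, because the list holds genes it had called on these libraries, 52.7% of which were called higher here and 41.7% lower. The members were counted among the higher genes of each group, a direction that the rule had fixed for them. Of 20 genes with an entry of the list for the assembly of secondary metabolites, 11 were higher and 9 lower. The AMP-dependent ligase entry was held by 12 of them. Of the 3 with a pyridoxal phosphate-dependent decarboxylase entry only the member POX09368 was higher. Neither of these entries by itself places a gene in secondary metabolism. Of 33 genes with an entry of the cell surface list, 18 were higher, 13 lower and 2 not called. For the entries of the members alone, the LysM genes had 2 higher and 2 lower, and the concanavalin A-like genes 7 higher and 7 lower. The concanavalin A-like genes included glycoside hydrolases, such as POX06783 and POX03430 of family GH11. That entry therefore does not by itself place a product at the cell surface. Of 11 genes for transport other than sugar and major facilitator transport, 7 were higher and 4 lower, and the members made up 4 of the 7. Of 11 genes for aromatic amino acids and conjugation, 5 were higher and 6 lower. Its 9 genes with the glutathione S-transferase entry IPR004045 included 3 higher, POX06055 among them, and 6 lower. Of 12 signalling genes, 6 were higher and 6 lower, and the lower ones included the deleted gene *PoxMKK1* (POX07948) itself. Of the 3 with a RING finger only the member POX07003 was higher. None of the 33 members had an entry of the 14 peptidase genes, of which 7 were higher, 6 lower and 1 not called.

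The members were shorter than other genes. Their implied effective length had a median of 665 bases with a range from 149 to 4681 bases, and 15 of them (45.5%) were under 500 bases, beside 13.1% of the 6982 genes with a mean of at least 10 FPKM in Δ*PoxMKK1*, whose median was 1257 bases. Of these 15 members, 13 had no InterPro entry. A limit in FPKM asks for fewer reads of a short gene: POX04914, with an implied length of 215 bases, met it with 138 reads over the 3 mutant libraries, and POX05980, with 4681 bases, had 5288 reads at less than 2 times its mean FPKM. All expected counts of the members were whole to the 2 decimals deposited, which does not by itself show that no read was shared with another gene.

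The reverse case was rarer. With the strains exchanged, a mean below 1 FPKM in Δ*PoxMKK1* and at least 10 FPKM in each library of Δ*PoxKu70* were found for 8 genes, one of which was *PoxMKK1* itself, beside the 42 genes that met the limits in the other direction.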

How the data were processed

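Messenger RNA of 3 libraries per strain was sequenced (BGISEQ-500), and libraries were grouped by the strain and the letter in the labels. The authors deposited, for each gene and library, an expected count (an estimated, unnormalized number of reads) and an FPKM value normalized for length and depth. The submitters' processing notes name BWA 0.7.10-r789, Bowtie2 2.1.0, RSEM 1.2.12 and DESeq2, without their roles. Use of strand is not given in the sources used here.

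Members were found from FPKM, and families and domains were read from the annotation columns of the study's list of changed genes. The members and the lists were chosen with earlier results of these data known. Expected counts were rounded and fitted with edgeR 4.0.16 (R 4.3.3; TMM scaling, filterByExpr, quasi-likelihood test, Benjamini-Hochberg adjustment over 8749 genes), and the script was tested on simulated data. Genes named are the 10 most abundant members, members with entries of the lists, members beside one another, genes at the limits and the reference genes, with called neighbours and the ends of ranges named after their values were seen. Implied effective length is the length in bases at which a gene's count, scaled by the library's total, gives its FPKM. Alternatives used limma 3.58.1 on log2(FPKM + 0.5), DESeq2 1.42.0, other limits, filters and scalings, and libraries left out. P-values set the difference between the strains against the spread between these 3 libraries per strain, as estimated with information shared over genes. No RefSeq identifier matched those of the files (0 of 9834), so no positions or sequences are given. Figures were drawn with matplotlib 3.10.9.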

Additional observations from a re-analysis of the deposited data

How the results depend on the processing

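The number of genes that met the rule depended on its limits: it was 17 with a control mean below 0.5 FPKM and 54 below 2 FPKM, and 50 with at least 5 FPKM in each mutant library. Leaving out each library in turn gave 30 to 40 genes, against 33. The share of counts held by the members in Δ*PoxMKK1*, 0.307% on average, was 0.432% of summed FPKM, and 0.244% without POX09368, the member with the most reads. Over all tested genes, 4044 were called without the fold minimum, against 1728, and 17 neighbours were called higher when genes up to 2 numbers away were counted, of 101 tested, against 11 of 51. Leaving out 1 library gave 9 to 13 neighbours. All 363 values of the members' log2 fold changes under the alternatives other than limma kept their direction and call, as members were chosen to differ. Of 517 values for 47 other named genes, also without limma, 11 lost the call, 7 gained it and none reversed.

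Library letters were not taken to pair the strains, since deviations of same-lettered libraries correlated at 0.34 (F), 0.03 (S) and 0.13 (T) and mutant library T correlated best with control library S. With a replicate block, 1739 genes were called, against 1728, and 12 neighbours were higher, against 11. Library sizes alone in place of TMM were added after the data were seen, and gave 1726 genes, 58.4% of them higher, against 54.8%. Members with a few control reads are limited by depth, and 7 had at most 3.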
